A study of Homo sapiens with 6 samples.

Results

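The MMP gene cluster of chromosome band 11q22 is a row of neighbouring genes that encode secreted matrix metalloproteinases. Its members were taken by name, with no cut on their expression values, though earlier results of these data were known. They are MMP1, MMP3, MMP7, MMP8, MMP10, MMP12, MMP13, MMP20 and MMP27, which are 9 of the 58395 genes in the count table. RNA was sequenced from MDA-MB-231 cells, an invasive triple-negative human breast cancer line of mesenchymal appearance, in 6 libraries. In the siCTR group (3 libraries) the cells were transfected with a non-targeting siRNA. In the siCRP2 group (3 libraries) they were transfected with a CRP2 targeting siRNA, the single sequence that the study's methods call siCRP2#a, against CSRP2, the gene of the actin-bundling protein CRP2. All cells came from 1 line, were grown in complete medium and were harvested 65 h after transfection according to the labels. The siRNA methods of the paper give a slightly later time. The comparison asked which transcripts differ in level once CRP2 is depleted. With a single siRNA sequence, the loss of CRP2 and any other action of that siRNA cannot be told apart in these libraries. By RT-qPCR, outside these libraries, the paper reports lower MMP13 mRNA also with another CRP2 siRNA and with an shRNA. In its rescue line, an shRNA-resistant CRP2 raised MMP13 mRNA again. MMP1 is not among the genes that the paper reports by RT-qPCR.

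Matrix metalloproteinases are zinc-dependent proteases that are secreted or membrane-bound as inactive proenzymes and, once cleaved, degrade extracellular matrix. The genes of the 11q22 cluster arose by duplication and encode enzymes of differing substrate preference: the collagenases MMP1, MMP8 and MMP13 cut fibrillar collagen, the stromelysins MMP3 and MMP10 act on many matrix proteins and on other proenzymes, MMP7 is matrilysin, MMP12 the macrophage elastase and MMP20 the enamel protease enamelysin, while MMP27 is little studied. In tumours of the breast the secreted collagenases are known for their part in invasion, and several promoters of the cluster are textbook targets of the transcription factors AP-1 (dimers of FOS and JUN proteins) and ETS.

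In GENCODE coordinates on GRCh38, the 9 genes lay on the minus strand of chromosome 11 within 435.2 kb, between 102520508 and 102955732. Read along the chromosome, the order was MMP7 (102520508 to 102530750), MMP20 (102576832 to 102625332), MMP27 (102691487 to 102705769), MMP8 (102711796 to 102727050), MMP10 (102770502 to 102780628), MMP1 (102789401 to 102798160), MMP3 (102835801 to 102843609), MMP12 (102862736 to 102874982) and MMP13 (102942995 to 102955732). The noncoding gene WTAPP1 lies on the opposite strand across MMP10, MMP1 and part of MMP3, and shares 223 exon bases with MMP1, 32 with MMP3 and 0 with MMP10. WTAPP1 had 0 counts in every library. Whether the counting used strand is not given in the sources used here, so reads of the shared bases cannot be assigned with certainty.

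Promoter sequences are shown for a pair of members in which the same arrangement of 2 short motifs was found. RefSeq promoters (GRCh38.p14, 250 bases before and 50 bases after the start of transcription) were matched for 5 of the 9 members, MMP7, MMP8, MMP10, MMP20 and MMP27, and not for MMP1, MMP3, MMP12 and MMP13. The bases from -120 to -21 are printed 5′ to 3′ on the strand of the gene, for MMP7 at chr11:102530768-102530867 and for MMP10 at chr11:102780649-102780748. Capitals mark the AP-1-like motif TGANTCA, searched on both strands, and the TATA box TATAAA.
MMP7: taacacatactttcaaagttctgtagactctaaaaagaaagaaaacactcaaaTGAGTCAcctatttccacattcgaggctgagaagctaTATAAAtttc
MMP10: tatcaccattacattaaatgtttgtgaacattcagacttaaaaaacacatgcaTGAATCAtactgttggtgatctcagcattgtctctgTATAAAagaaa
In both promoters the AP-1-like motif began 67 bases before the start, and the TATA box 30 bases before it in MMP7 and 31 in MMP10. Only the motif of MMP7 was an exact AP-1 site, TGAGTCA or its reverse complement TGACTCA, which 4.949% of all 35116 promoters of this length held. The looser TGANTCA was found in 3 of the 5 members (MMP7, MMP10 and MMP20, in the last at -112) and in 7.709% of all promoters. TATAAA was found in 4 of the 5 (at -72 in MMP20 and -110 in MMP8) and in 11.53% of all. The CArG box, the element that serum response factor (SRF) binds, was searched in a strict form. It was found in 0 of the 5 and in 1.293% of all promoters. MMP1 and MMP13 were not among the 5. The paper predicts SRF sites in the proximal promoter of MMP13, by another method over a longer stretch. These matches describe letters in the window and not bound sites.

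Library totals ran from 17336798 to 25321830 counts in siCTR and from 18346442 to 39115778 in siCRP2. CSRP2 itself stood at 11.4 to 13.7 CPM (counts scaled to a common library size after TMM adjustment of the totals) in siCTR and at 1.78 to 2.17 CPM in siCRP2, for which edgeR gave a log2 fold change of -2.66 and an adjusted p of 2.42e-08. At these depths 1 count was worth 0.0256 to 0.0582 CPM, so most members of the cluster were measured by few reads and are given as counts. The labelled line was checked against 8 basal and mesenchymal markers, which summed to 4427 to 5544 CPM in siCTR and 3891 to 4482 CPM in siCRP2. The sum came from genes such as VIM, CD44 and CAV1, while the basal keratin genes KRT5 and KRT14 stood at 0.0942 and 0.385 CPM in siCTR and at 0 and 0.211 CPM in siCRP2. Of 8 luminal markers, the hormone receptor genes were at or near 0 (PGR 0 counts, ESR1 0.0132 CPM in siCTR and 0.0418 CPM in siCRP2), but KRT8, KRT18 and KRT19 stood at 1025, 680 and 403 CPM in siCTR, and the 8 summed to 2005 to 2502 CPM in siCTR and 2000 to 2156 CPM in siCRP2. Each column name carries a code, 0412, 0611 or 1311, that 1 library of each group shares. The main test left this code out, and values given as paired by code come from a separate fit.

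The cluster was sparsely transcribed in these cells and was mostly MMP1. The 6 libraries held 1564 counts for the 9 genes together, of which 91.6% were from MMP1 and 3.13% from MMP13. Of the 9 members, 7 had a count in at least 1 library, 3 (MMP1, MMP7 and MMP8) had a count in all 6, and MMP12 and MMP27 had 0 throughout. The test was run on genes seen in 2 or more of the 3 libraries of either group, which left 5 members. Of those 5, MMP1 and MMP13 fell in siCRP2 at an adjusted p under 0.05, 0 rose, and MMP7, MMP8 and MMP10 did not pass, where 11.5% of all 23806 genes tested fell and 12.5% rose. In 4 of the 5 (MMP1, MMP8, MMP10 and MMP13) every siCRP2 library lay below every siCTR library, which held for 18.0% of all genes tested. MMP10 entered the test through its siCTR libraries alone, and a member of few counts is open to the test only if it has reads in 1 group, so these counts describe the members and support nothing further.

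**Figure D1:**
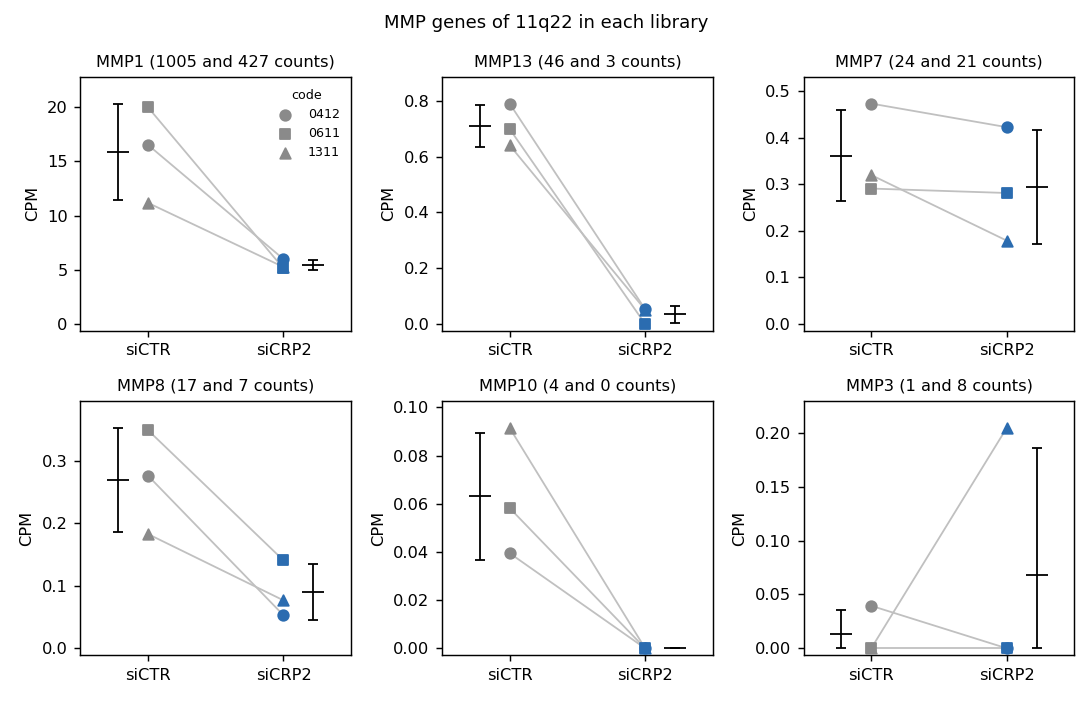
Level of each of 6 members in each library, in CPM on a linear axis from 0 (a different range in each panel), with lines joining the libraries that share a code and bars for mean ± SD of the 3 libraries. MMP1 and MMP13 are lower in all siCRP2 libraries, MMP7 overlaps between groups, and MMP3 stands above 0.05 CPM in 1 siCRP2 library only.

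Among the collagenases, MMP1 (interstitial collagenase, ENSG00000196611) was the only member measured with precision. It had 418, 343 and 244 counts in the siCTR libraries 0412, 0611 and 1311, or 16.5, 20.0 and 11.2 CPM. In the siCRP2 libraries of the same codes it had 113, 109 and 205 counts, or 5.98, 5.12 and 5.25 CPM. The siCTR libraries differed among themselves by more than the siCRP2 libraries did, and the groups did not overlap. In bulk RNA, fewer cells of a type and less RNA per cell cannot be told apart. The mean went from 15.9 ± 4.44 to 5.45 ± 0.464 CPM (± SD over 3 libraries per group), and edgeR put the log2 fold change at -1.54 with a standard error of 0.192 and an adjusted p of 3.02e-05. Within each code the siCRP2 library held 0.362 (0412), 0.256 (0611) and 0.470 (1311) of the siCTR level, with 95% exact counting intervals of 0.292 to 0.447, 0.205 to 0.319 and 0.389 to 0.568. The interval of code 1311 did not overlap that of code 0611, so the size of the fall varied between pairs beyond counting error.

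MMP13 (collagenase 3, ENSG00000137745), which prefers type II collagen, showed the lowest siCRP2 level relative to siCTR of the members with a count in both groups. Its siCTR libraries held 20, 12 and 14 counts (0412, 0611 and 1311) and its siCRP2 libraries 1, 0 and 2. In CPM these were 0.710 ± 0.0753 and 0.0347 ± 0.0301 (SD, n = 3 each). Every siCTR library lay above the floor of 3 counts and no siCRP2 library did. The siCRP2 to siCTR ratio of the summed counts, 3 against 46, was 0.0529 after scaling (95% exact counting interval 0.0105 to 0.165), and edgeR gave an adjusted p of 0.000106. With 1 library left out the ratio ran from 0.0348 (without siCRP2 1311) to 0.0724 (without siCRP2 0611). The interval of the sums lies wholly below the 0.307 to 0.387 of MMP1, for which the ratio was 0.345. Within single codes the MMP13 interval overlapped that of MMP1 in 0412 (0.00162 to 0.419 against 0.292 to 0.447) and in 0611 (0 to 0.290 against 0.205 to 0.319). It did not in 1311 (0.00882 to 0.348 against 0.389 to 0.568). Whether MMP13 and MMP1 changed by different amounts was not tested. The intervals cover counting error only.

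MMP8 (neutrophil collagenase, ENSG00000118113) had 7, 6 and 4 counts in siCTR and 1, 3 and 3 in siCRP2. The groups did not overlap, by a margin of 1 count. The ratio of the sums, 7 against 17, was 0.334 (95% exact counting interval 0.117 to 0.848), near that of MMP1 but far less certain. With a log2 fold change of -1.53 (standard error 0.642) its unadjusted p was 0.0296 and its adjusted p 0.1 from edgeR, so it was not called. The neutrophil markers MPO, CSF3R, S100A8, S100A9 and FCGR3B, 5 of the 7 looked up, were at 0 in every library, and the summed level of all 7 was 0.0790 to 0.137 CPM in siCTR and 0.0529 to 0.188 CPM in siCRP2.

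The stromelysins were near the limit of detection. MMP10 (stromelysin 2, ENSG00000166670) had 1, 1 and 2 counts in siCTR and 0 in each siCRP2 library. The 95% exact counting interval of the siCRP2 to siCTR ratio reached from 0 up to 1.23, and edgeR gave an adjusted p of 0.101. A difference in MMP10 was not detectable at this depth. MMP3 (stromelysin 1, ENSG00000149968) had 1 count in siCTR 0412, 8 counts in siCRP2 1311 and 0 in the other 4 libraries. Its 9 counts did not meet the filter and MMP3 was not tested. The 8 counts came from the deepest library and correspond to 0.205 CPM (95% exact counting interval 0.0884 to 0.404). A count of 0 allowed up to 0.159 CPM in siCRP2 0412 and 0.141 CPM in siCRP2 0611 at the floor of 3 counts, both inside that interval.

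MMP7 (matrilysin, ENSG00000137673), a small protease without the hemopexin domain of most family members, did not separate the groups. It had 12, 5 and 7 counts in siCTR and 8, 6 and 7 in siCRP2, or 0.362 ± 0.0982 and 0.295 ± 0.123 CPM (SD, n = 3 each). Both ranges lay within a few counts of each other and overlapped. The ratio of the sums, 21 against 24, was 0.710 with a 95% exact counting interval of 0.376 to 1.33, and the log2 fold change was -0.42 (standard error 0.491, adjusted p = 0.605, edgeR). The interval, which covers counting error only, takes in a ratio of 1 and lies above the summed ratios of MMP13 and MMP1. It overlaps the interval of MMP1 (0.307 to 0.387) at its lower end, and it holds the 0.470 of MMP1 in code 1311. Whether MMP7 and MMP1 changed by different amounts was not tested.

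Of the remaining members, MMP20 (enamelysin), the gene of a protease of developing teeth, had a single count, in siCRP2 0611, and MMP20-AS1 on the other strand shares 206 exon bases with it. MMP12 (macrophage elastase) and MMP27 had 0 counts in all 6 libraries, where 3 counts would have been worth 0.0209 CPM over the libraries together. Of the genes used as macrophage markers, 3 fell and 0 rose. CD14, CSF1R and LYZ fell from 34.1 to 9.70, from 5.58 to 1.11 and from 1.08 to 0.362 CPM (adjusted p = 5.42e-08, 1.55e-05 and 0.00517, edgeR). They were 3 of the 6 markers tested, where 11.5% of all genes tested fell. Not called were PTPRC (0.428 CPM in siCTR and 0.336 in siCRP2), MRC1 (8 and 12 counts) and MARCO (0 and 3 counts). CD163 had 0 counts in every library. The 7 markers summed to 36.8 to 45.2 CPM in siCTR and 10.5 to 13.0 CPM in siCRP2. Of 7 fibroblast markers 6 were tested and 1, PDGFRB, fell, from 19.9 to 5.99 CPM. Under pairing by code 2 fell, against 4229 of all 23806 genes tested. LUM stood at 5.18 and 4.28 CPM and was not called. PDGFRA, DCN and THY1 were near 0, at 0.0541, 0.0194 and 0.0347 CPM in siCTR. The 7 summed to 24.9 to 29.4 CPM in siCTR and 9.86 to 13.2 CPM in siCRP2. In these cells of 1 line, CD14 was the largest term of the macrophage sum and PDGFRB of the fibroblast sum. Both sums moved in the direction of MMP1 and MMP13, and their part in the result was not tested.

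Per length of exon, the levels of the members in siCTR fell in the order MMP1, MMP13, MMP7, MMP8, MMP10 and MMP3. MMP1 stood at 5.80 ± 1.62 CPM per kb of exon (SD, n = 3; 4.08 to 7.30), far above MMP13 at 0.251 ± 0.0266 (0.226 to 0.279). MMP7 followed at 0.156 ± 0.0423 (0.126 to 0.204), then MMP8 at 0.0784 ± 0.0243 (0.0532 to 0.102), MMP10 at 0.0359 ± 0.0150 and MMP3 at 0.00710. The ranges of neighbouring members in this order did not overlap down to MMP8, and the highest MMP10 library (0.0520) lay just below the lowest MMP8 library. MMP7 and MMP13 changed places when the length of the longest transcript was used in place of all exons (0.273 and 0.262), so their order is not settled. In siCRP2 the order was MMP1 (1.99 ± 0.169), MMP7 (0.127 ± 0.0528), MMP3 (0.0368), MMP8 (0.0262), MMP13 (0.0123) and MMP20 (0.00613). MMP13 thus went from the second to the fifth place, and the place of MMP3 rests on the 1 library with 8 counts. MMP1 stood above all others in every siCRP2 library, while MMP7 (0.0772 to 0.182) overlapped MMP3 (0 to 0.110), and each later member in this order overlapped the one before it.

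Summed over the 9 genes, the cluster stood at 18.1, 21.4 and 12.4 CPM in siCTR 0412, 0611 and 1311, and at 6.51, 5.59 and 5.76 CPM in siCRP2. The groups did not overlap, and the siCRP2 mean of 5.95 ± 0.489 was 0.344 of the siCTR mean of 17.3 ± 4.54 CPM (SD, n = 3 each). The share of MMP1 in the sum was 91.6% over the siCTR libraries and 91.4% over the siCRP2 libraries, from 90.0% to 93.5% in single libraries. The make-up of the rest differed: MMP13 supplied 4.36%, 3.27% and 5.17% of the cluster's counts in siCTR (0412, 0611 and 1311), and 0.813%, 0% and 0.889% in siCRP2.

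The genes around the cluster were set beside it, since members share 1 stretch of chromosome. Within 1 Mb on either side or between the members, the table held 44 other genes, of which 28 had 0 counts and 12 were tested. Of these 12, 1 fell, 1 rose and 10 did not pass, where 11.5% of all genes tested fell and 12.5% rose. The median log2 fold change was -0.21 against -0.02 over all genes tested. The 8 other genes that lie between the members included 0 with enough counts to test. TMEM123, which encodes a membrane protein, is the nearest tested gene on the MMP7 side, 50.1 kb away, and went from 587 ± 79.8 to 488 ± 17.5 CPM (± SD over 3 libraries per group). Its log2 fold change of -0.27 had an adjusted p of 0.0603 in edgeR, which became 0.000182 once libraries of 1 code were paired. On the MMP13 side, 95.0 kb away, DCUN1D5 had a log2 fold change of 0.22 (adjusted p = 0.0915, edgeR), which passed under pairing by code (adjusted p = 0.00649). The gene that fell was ENSG00000260966, a long noncoding RNA gene inside DCUN1D5 on the same strand, whose reads may be shared with it. It went from 1.37 ± 0.374 to 0.588 ± 0.0904 CPM, with a log2 fold change of -1.26 and an adjusted p of 0.00985 from edgeR, and the call was lost without siCRP2 1311 (adjusted p = 0.0529). BIRC2, the gene of an inhibitor of apoptosis, rose from 209 ± 16.0 to 253 ± 9.03 CPM, a change of 0.27 on the log2 scale (edgeR, adjusted p = 0.0261). That call was lost without any 1 of 4 libraries (siCTR 0412 or any siCRP2 library), where the adjusted p ran from 0.062 to 0.193, and also with edgeR's exact test (0.0524) and with the filter filterByExpr (0.0505). Whether the neighbours and the members differ as groups was not tested.

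**Figure D2:**
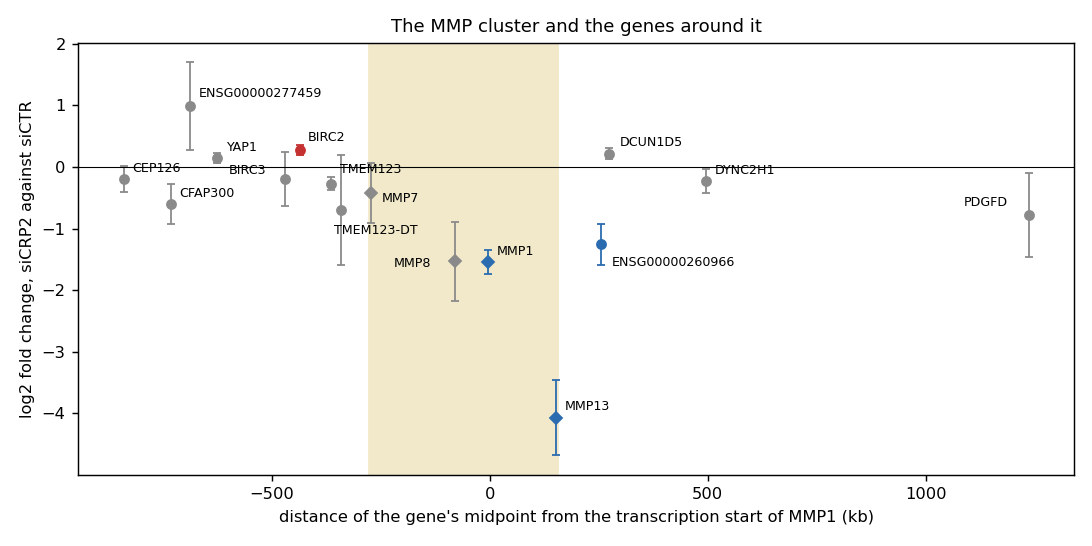
Log2 fold change ± standard error of the tested genes within 1 Mb of the cluster (circles) and of the members with a count in both groups (diamonds), by distance in kb from the start of MMP1. The shaded band is the cluster, blue marks called genes that fell, red those that rose and grey genes not called, and MMP13 at -4.07 lies below every other gene drawn.

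Outside 11q22, 14 of the 15 other genes of the family had enough counts to test. Of these 4 fell and 1 rose, where 11.5% of all genes tested fell and 12.5% rose. Pairing by code gave 4 and 3, against 4229 and 4644 of all 23806. The median log2 fold change was -0.78 against -0.02 over all genes tested. MMP14, the membrane-bound collagenase and activator of other proenzymes, had a log2 fold change of -0.97 (adjusted p = 0.0033, edgeR). MMP9, a gelatinase gene, was seen with 16 and 4 counts (adjusted p = 0.041, edgeR), and unlike MMP13 it lost its call without any 1 of the 6 libraries (adjusted p = 0.0544 to 0.104). MMP15 and MMP16, also membrane-bound, had log2 fold changes of -1.95 and -1.30 (adjusted p = 0.0166 and 0.00129, edgeR), and MMP15 lost its call without any 1 of the siCRP2 libraries (adjusted p = 0.0521 to 0.0789). MMP19 rose by 1.07 (adjusted p = 0.000118, edgeR). The fall of MMP1 and MMP13 thus stood among falls and 1 rise elsewhere in the family.

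**Figure D3:**
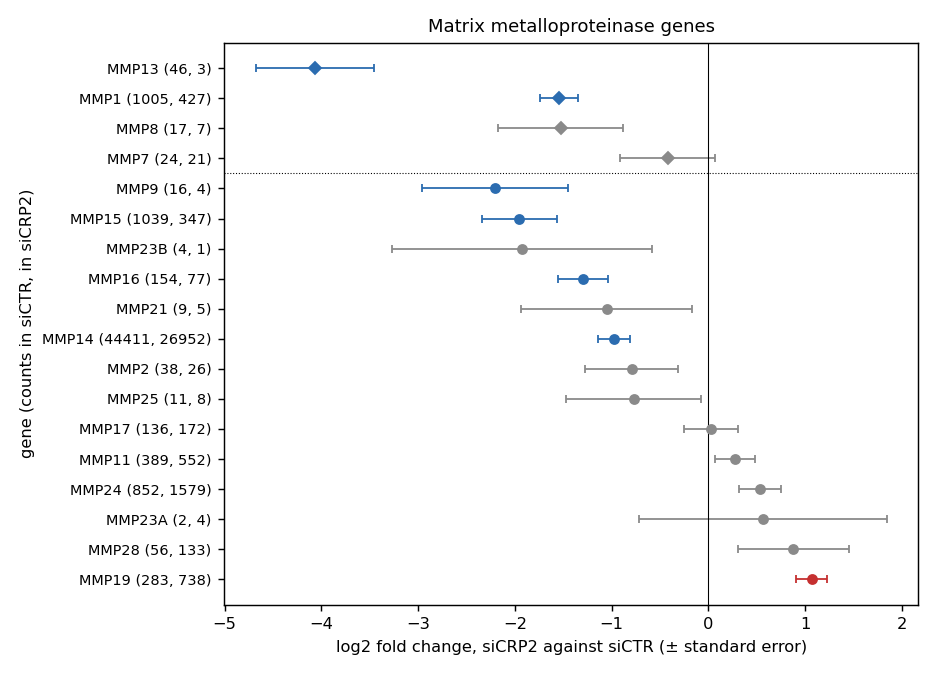
Log2 fold change ± standard error of the matrix metalloproteinase genes tested with a count in both groups, with the counts of the siCTR and the siCRP2 libraries after each name. Diamonds above the dotted line are members of the 11q22 cluster, circles the other genes, and blue and red mark genes lower and higher at an adjusted p under 0.05.

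Transcription factors linked to promoters of the cluster, together with SRF and its cofactors, were looked up as a list of 25, all of which were tested. SRF and its cofactors are in the list whether or not a member's promoter holds a site for SRF. Of these, 6 fell, 4 rose and 15 did not pass, where 11.5% of all genes tested fell and 12.5% rose. Pairing by code gave 9 that fell and 6 that rose, against 4229 and 4644 of all 23806. The median log2 fold change was -0.05. Genes of AP-1 proteins, whose exact site only the MMP7 promoter held among those matched above, went different ways. FOSL1 and JUN, at 122 ± 18.8 and 92.5 ± 5.44 CPM in siCTR (± SD over 3 libraries), had log2 fold changes of -0.06 and -0.05 (standard errors 0.108 and 0.0969, adjusted p = 0.748 and 0.778, edgeR). JUND and JUNB fell, with log2 fold changes of -0.72 and -0.49 (adjusted p = 0.000723 and 0.00459), and ATF3 and FOSL2 rose by 1.27 and 0.30 (adjusted p = 0.00307 and 0.0288). SRF fell from 107 ± 10.5 to 40.8 ± 4.28 CPM (± SD over 3 libraries per group), and its log2 fold change was -1.40 (edgeR, standard error 0.102, adjusted p = 6.66e-08). Its coactivator gene MRTFA and its cofactor gene ELK3 fell by 1.19 each (adjusted p = 5.05e-06 and 9.13e-08, edgeR), MRTFB fell by 0.39 (adjusted p = 0.0189) and ELK4 rose by 0.32 (adjusted p = 0.0201). ETS1 and RUNX2, which is known as a regulator of MMP13, had log2 fold changes of -0.21 and -0.01 (adjusted p = 0.211 and 0.983, edgeR), and that of ETS1 passed under pairing by code (adjusted p = 0.00517). The ETS gene ETV5 rose by 0.28 (adjusted p = 0.0448, edgeR).

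Ligands and receptors tied to the induction of members of the cluster formed a list of 21, with a median log2 fold change of -0.49. The list also held IL1RN, the gene of an antagonist of the interleukin 1 receptor, so a rise in it is not a rise of an inducer. Of the 21, 7 fell, 1 rose and 13 did not pass, where 11.5% of all genes tested fell and 12.5% rose. Under pairing by code 10 fell and 3 rose, against 4229 and 4644 of all 23806. The 3 were LIF, HBEGF and the antagonist gene IL1RN. IL1RN had a log2 fold change of 2.42 when paired (adjusted p = 4.64e-15, edgeR) and of 2.51 in the main test (adjusted p = 0.12). IL1R1, the receptor of interleukin 1, had a log2 fold change of -1.26, BSG, the matrix metalloproteinase inducer basigin, of -1.67 and the thrombin receptor gene F2R of -0.62 (adjusted p = 3.22e-07, 4.19e-07 and 0.000262, edgeR). TNFRSF1A, OSMR, TGFB1 and TGFBR2 fell as well, and LIF rose.

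Of 15 genes of proteins that take part in activating the proenzymes, 11 were tested, with a median log2 fold change of -0.37. Of the 11, 3 fell and 0 rose, where 11.5% of all genes tested fell and 12.5% rose. Pairing by code gave 5 and 2, against 4229 and 4644 of all 23806. FURIN, which activates membrane-bound members of the family, had a log2 fold change of -1.69, PRSS3 of -1.32 and TMPRSS2 of -1.25 (adjusted p = 1.83e-06, 0.00598 and 0.0179, edgeR). The call of TMPRSS2 was lost without siCRP2 1311 (adjusted p = 0.0527). PLAU, the urokinase gene, stood at 394 ± 115 and 306 ± 127 CPM (SD, n = 3 each, adjusted p = 0.601, edgeR) and was called only under pairing by code (log2 fold change -0.40, adjusted p = 1.7e-09). PLAUR, the gene of its receptor, had a log2 fold change of -0.26 (adjusted p = 0.206, edgeR) and also passed under pairing by code (adjusted p = 0.000793). PLG, the gene of plasminogen, had 0 counts.

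All 7 inhibitor genes were tested, with a median log2 fold change of -0.39. Of the 7, 4 fell and 0 rose, where 11.5% of all genes tested fell and 12.5% rose. Pairing by code gave 5 lower and 2 higher, against 4229 and 4644 of all 23806. A2M went from 58 to 4 counts, and TIMP4, TIMP3 and RECK had log2 fold changes of -1.99, -0.73 and -0.39 (adjusted p = 8.13e-05, 0.0174, 0.0387 and 0.0228, edgeR). Leaving out 1 library ended the call of TIMP4 (without siCRP2 0611, adjusted p = 0.0681), of TIMP3 (siCTR 0611 or 1311, 0.0938 and 0.152) and of RECK (siCRP2 1311, siCTR 0412 or siCTR 0611, 0.0619 to 0.0935). TIMP1 stood at 291 ± 28.7 and 261 ± 24.0 CPM (SD, n = 3 each, adjusted p = 0.268, edgeR), and passed under pairing by code (adjusted p = 0.0334). Transcripts of these 4 inhibitors were thus lower in the same group as those of MMP1 and MMP13.

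Of 14 substrate genes 8 were tested, of which 1 fell and 2 rose, where 11.5% of all genes tested fell and 12.5% rose. Pairing by code gave 3 and 3, against 4229 and 4644 of all 23806. The fibrillar collagen genes that MMP1 and MMP13 products act on went both ways: COL1A2 fell by 1.29 on the log2 scale (adjusted p = 9e-05, edgeR), COL1A1 rose by 0.64 (adjusted p = 0.00239), and COL3A1 had 96 and 49 counts (log2 fold change -1.38, adjusted p = 0.217, and 1.1e-05 under pairing by code). COL3A1 also passed with DESeq2 (adjusted p = 0.049), with no filter (0.001) and without siCTR 0412 (0.00403), and its log2 fold change was -0.51 without siCTR 1311 (adjusted p = 0.523). CDH1, the E-cadherin gene, rose by 0.94 (adjusted p = 0.000652, edgeR). The median log2 fold change was -0.21, or -0.66 over the 7 with a count in both groups, which leaves out ENAM with 0 and 3 counts.

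**Figure D4:**
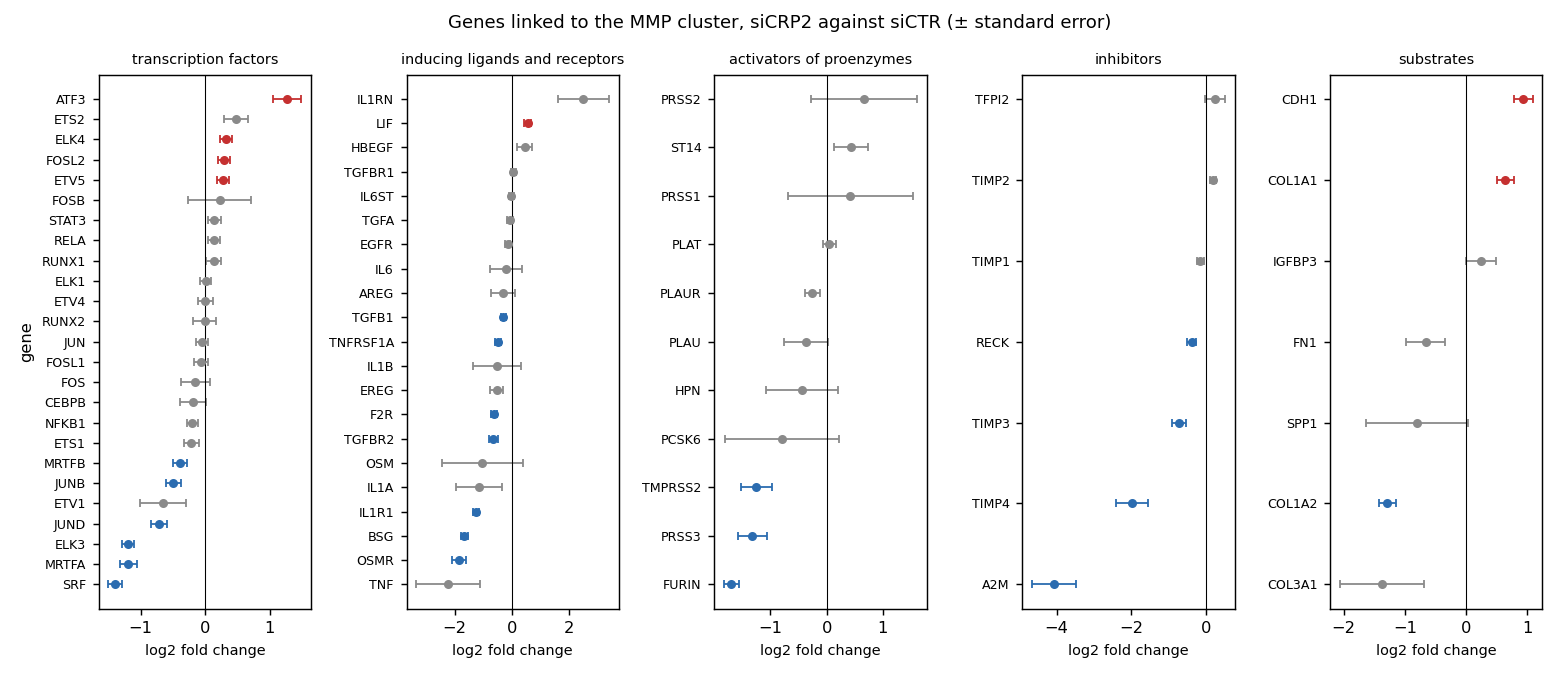
Log2 fold change ± standard error of the tested genes with a count in both groups, of 5 lists linked to the cluster, with a different range on each axis. Blue and red mark genes lower and higher at an adjusted p under 0.05, and SRF, FURIN and A2M are the lowest called genes of their panels.

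The protein-coding genes most like MMP1 over the 6 libraries were TNFRSF10B, NOX5 and NHSL2 (Pearson r of log2 CPM 0.997, 0.997 and 0.996, among 11886 genes whose mean reached 1 CPM). For MMP13 they were EPSTI1, PDGFRB and SHFL (r of 0.998 each). Since the 6 libraries form 2 groups of 3, such values mostly restate the difference between groups: 1125 genes had an r over 0.9 with MMP1 and 1334 with MMP13. No p is given for them.

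The heptamer GCCTCAC, shown because genes that hold it were more frequent among those that fell, was counted in the canonical transcripts of the members. It was picked in an earlier search of these same libraries, so its share among the genes that fell is a description: 46.49% of 2368 protein-coding genes that fell, 11.86% of 2851 that rose and 21.93% of 9638 others had at least 1 copy. All 9 members had 0 copies, MMP1 and MMP13 included. Of 86 tested genes in the lists linked to the cluster and the rest of the family, 27 held it: 10 of the 25 that fell, 0 of the 8 that rose and 17 of the 53 that did not pass. The 10 were SRF, ELK3, FURIN, MMP14, F2R and TGFBR2 (1 copy each), MRTFA, MRTFB and MMP15 (2 each) and A2M (3). Among the 17 were EGFR (3), MMP25 and FN1 (2 each), and FOSL1, ETS1 and RUNX2 (1 each).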

How the data were processed

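Polyadenylated RNA was sequenced in 6 libraries of MDA-MB-231 cells. The deposited values are raw read counts per gene, which the authors made with STAR on GRCh38. The submitters' processing notes name GRCh38 and hg38, while STAR's version, the gene annotation behind the counts and whether strand was used are not given in the sources used. Column names gave the group of each library, and a text column of 4 gene names was not used. The filter kept 23806 genes seen in 2 or more of the 3 libraries of either group. After TMM scaling (factors 0.989 to 1.03) they entered the quasi-likelihood test of edgeR 4.0.16 (R 4.3.3) with robust shrinkage, adjusted by Benjamini-Hochberg over all of them and called at an adjusted p under 0.05. Standard errors were worked out from the F statistics. Ratios of few counts have exact conditional binomial intervals. GENCODE release 44 gave coordinates to 57754 of the 58395 genes. The steps were tested on simulated data.

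The members and lists were chosen with earlier results of these data known, and 1 gene of the list of activators is not reported here, its list being counted without it. Named were all members, from each list and the neighbours up to 4 genes with the smallest p, SRF, FOSL1, JUN, ETS1, RUNX2, TIMP1, PLAU, MMP9, MMP14, COL1A1 and COL1A2, the 3 genes most like MMP1 and MMP13, and, after their values were seen, genes that complete a count of calls or hold the heptamer. Libraries with the same code deviated together from their group means (correlation 0.459 to 0.744 over 10827 genes, at most 0.114 between codes), so the codes were taken to pair the libraries, though nothing ties them to the replicate numbers of the labels. The study calls the replicates biological.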

Additional observations from a re-analysis of the deposited data

How the results depend on the processing

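MMP1 and MMP13 were called lower, and 0 members higher, under every alternative run: the replicate block, DESeq2 (version 1.42.0), edgeR's exact test, other scalings and filters, thinning and each library left out. MMP1 kept a log2 fold change of -1.74 to -1.35 with 1 library left out (-1.49 with the libraries paired by code), and the siCRP2 to siCTR ratio of the summed cluster then ran from 0.301 to 0.390. Under the replicate block 4229 genes were lower (2721 of them shared with the 2735) and 4644 higher (2983 shared with the 2987), and of the neighbours 2 were lower and 2 higher. Of 121 tested genes in the lists, markers and genes most like MMP1 or MMP13, it kept all 46 calls in their direction and added 25. With 1 library left out, 2048 to 2888 genes were lower and 1933 to 3128 higher (1933 without siCRP2 1311), and of the neighbours 0 to 2 were lower and 0 to 1 higher. The neighbours counted 2 lower with edgeR's filterByExpr or with no filter, and 0 higher with filterByExpr. With the longest transcript 4 of 6 members kept their place in the order of levels. Uncalled values near 0 changed sign: with 1 library left out FOSL1 ran from -0.16 to 0.058 and RUNX2 from -0.17 to 0.24, and RUNX2 was 0.028 when paired and 0.012 with library totals. TMEM123 also passed with DESeq2, with its size factors, with either other filter and without siCTR 1311 (adjusted p = 0.00899 to 0.0496). MMP8 and MMP10 stayed uncalled in every fit that held them, DESeq2 gave no adjusted p for either, and filterByExpr kept only MMP1 and MMP13 of the members. Depth limits what can be said of MMP3, MMP8, MMP10 and MMP20, and of MMP12 and MMP27 at 0 counts.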

Other observations

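Without a filter on low counts, 28729 genes were tested and MMP3 and MMP20 entered the fit. MMP3 then had an adjusted p of 0.253 and MMP20 of 0.572 (edgeR's quasi-likelihood test), and neither was called.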
